A study of Mus musculus with 16 samples.

Results

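The high mobility group (HMG) genes described here encode small, abundant chromatin proteins of 3 families. HMGB proteins carry HMG boxes, folds that enter the minor groove of DNA and bend it. HMGA proteins hold AT-rich DNA with short AT-hook motifs and are best known from embryonic and tumor cells. HMGN proteins bind the nucleosome itself, the particle of DNA wrapped around core histones, and are known to loosen chromatin and to compete there with the linker histone H1. All 9 genes, *Hmgb1*, *Hmgb2*, *Hmgb3*, *Hmga1*, *Hmga2*, *Hmgn1*, *Hmgn2*, *Hmgn3* and *Hmgn5*, were found by symbol among the 25905 genes of the authors' deposited table. The set was selected on the fold-change of *Hmgb3* in the authors' own comparison of spaceflight with ground control, and the rest of the family was added by name. Values of that comparison are not used here.

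Retinas from the right eyes of wild type male C57BL/6 mice, aged 10 weeks at the start, gave 16 RNA libraries. Of these, 8 came from the spaceflight group, housed aboard the International Space Station and dissected after their return, and 8 from the ground control group, kept on Earth in the same kind of housing on the same diet. The whole retina was used, so fewer cells of a type and less RNA per cell cannot be told apart. The columns of counts per library carry laboratory codes that match no label of a mouse or group, so values per mouse, the depth per library and the difference between the groups were not analysed here. What follows is therefore a description of levels over both groups together, with no SD, no test and no statement on spaceflight. The level of a gene is the authors' mean normalized count, the mean over all libraries of counts divided by size factors. Summed over genes these means come to 6995811. Genes with a mean of at least 1, 16066 in number, served as the background, and their median level was 94.5.

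The labelled tissue was checked against markers of its cells. The rod gene *Gnat1*, for rod transducin, was at a mean normalized count of 154477, and all 5 cone genes were at 537 or more. Lens crystallins were also measured, with *Cryaa* at 898, *Cryba1* at 288 and *Crygs* at 161. The pigment epithelium genes *Ttr*, *Rpe65* and *Best1* were at 540, 121 and 2.72. Of the red blood cell genes, *Hbb-bs* was not listed and *Hba-a1*, with 1 counted transcript, was at 0.213. *Alas2*, with 2, was listed at 0, as were broadly expressed genes with several counted transcripts such as *Cic*. Sequence shared with other genes was not examined for these markers. The part of lens and pigment epithelium in the HMG levels was not tested.

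The members of a family resemble each other in their coding sequence, which bears on whether short reads can separate them. The opening of the HMGB coding sequence is shown because it runs into the first HMG box. The 3 sequences are the first 60 coding bases of GENCODE transcripts on GRCm38, and the capitals mark the 41 bases that all of them share. They lie in exon 2 at chr5:149050678-149050737 on the minus strand for *Hmgb1*, chr8:57512599-57512658 on the plus strand for *Hmgb2* and chrX:71558058-71558117 on the plus strand for *Hmgb3*.
Hmgb1: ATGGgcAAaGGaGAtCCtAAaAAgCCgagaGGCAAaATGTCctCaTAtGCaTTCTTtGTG
Hmgb2: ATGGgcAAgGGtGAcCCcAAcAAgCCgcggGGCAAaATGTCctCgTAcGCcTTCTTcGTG
Hmgb3: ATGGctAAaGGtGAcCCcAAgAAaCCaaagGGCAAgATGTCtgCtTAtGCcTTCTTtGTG

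Over the whole coding sequence, identity at aligned positions was 77.1% between *Hmgb1* and *Hmgb2*, 75.3% between *Hmgb1* and *Hmgb3* and 73.2% between *Hmgb2* and *Hmgb3*. The longest run of identical bases between any of these was 27, between *Hmgb1* and *Hmgb3*.

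The HMGN genes share an octapeptide in the nucleosome-binding domain, the stretch by which these proteins hold the nucleosome. The 24 bases that encode it are shown because they are the signature of the family, and the capitals mark the 13 bases that are the same in all 4 genes. Each lies in exon 3 on the minus strand of GRCm38, at chr16:96127311-96127334 for *Hmgn1*, chr4:133966766-133966789 for *Hmgn2*, chr9:83114773-83114796 for *Hmgn3* and chrX:109010857-109010880 for *Hmgn5*.
Hmgn1: cGccGcTCcGCgaGgcTGTCgGCc
Hmgn2: aGaaGaTCtGCgaGgtTGTCtGCt
Hmgn3: aGacGgTCgGCcaGgtTGTCcGCg
Hmgn5: aGaaGaTCaGCccGacTGTCtGCt

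Identity within the HMGN family was lower than within the HMGB family, from 62.6% between *Hmgn1* and *Hmgn5* to 67.9% between *Hmgn1* and *Hmgn2*. Between *Hmga1* and *Hmga2* it was 70.1%. No window of 75 bases, the read length of the study, was found in the counted transcripts of more than 1 member (0 pairs of members shared one), so the 9 genes can be told apart from each other by reads of that length.

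Among the HMGN genes, *Hmgn1* had the highest level of all members. Its mean normalized count was 4120, which is higher than 98.9% of the background genes. *Hmgn2* followed at 1251, and *Hmgn5*, an X-linked member with a long acidic tail, at 398. These lay above 93.5% and 77.4% of the background genes. *Hmgn3*, a gene made as a long and a short isoform, had a mean of only 4.76. The family summed to 5773, of which *Hmgn1* made up 71.4%.

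Levels of different genes were compared per kilobase of their longest reference transcript. *Hmgn1* was then at 1895 mean normalized counts per kilobase, 3.27 times the level of *Hmgn2* (579) and 9.21 times that of *Hmgn5* (206). The *Hmgn2* transcript that the authors counted is much shorter than the longest one in the reference, 1265 against 2159 bases. Per kilobase of counted transcript, *Hmgn2* was at 989, and the ratio of *Hmgn1* to *Hmgn2* was 1.92 in place of 3.27. The coding sequence of *Hmgn5* has 1218 bases and that of *Hmgn1* 288, and per kilobase of coding sequence the ratio of *Hmgn1* to *Hmgn5* was 43.8.

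In the HMGB family, *Hmgb1*, which also acts as an alarm signal when it leaves the cell, had the highest level. Its mean normalized count was 2268, above 97.3% of the background genes, and it made up 74.3% of the family sum of 3054. *Hmgb2*, known from dividing and progenitor cells, had a mean of 628 and *Hmgb3*, known from blood stem cells and from eye development, one of 157. *Hmgb3* was thus the least abundant of the 3 HMGB members described here, above 59.6% of the background genes. Per kilobase of longest transcript, the level of *Hmgb1* was 799, that of *Hmgb2* 239 and that of *Hmgb3* 90.3. The level of *Hmgb1* was 8.85 times that of *Hmgb3* on this scale, and that of *Hmgb2* 2.65 times. Counted transcript and longest transcript are the same for these 3 genes, so these ratios hold on both scales, while per kilobase of coding sequence the ratio of *Hmgb1* to *Hmgb3* was 13.4.

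The HMGA genes had the lowest sum of the 3 families, and *Hmga1* was near the floor of the data. *Hmga2* had a mean normalized count of 11.2, above 24.2% of the background genes. Its level of 2.95 per kilobase was above 18.1% of the background genes with a reference length. *Hmga1* had a mean of 0.228, which is under the minimum of 1 for the background. Together these genes came to 11.5, against 3054 for the HMGB and 5773 for the HMGN genes.

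Across families, the order of levels per kilobase was *Hmgn1*, *Hmgb1*, *Hmgn2*, *Hmgb2*, *Hmgn5*, *Hmgb3*, *Hmgn3*, *Hmga2* and *Hmga1*. With no spread between mice at hand, it was not tested which neighbours in this order differ. The places of *Hmgb1* and *Hmgn2* were exchanged when the length of the counted transcript was used, with *Hmgn2* at 989 and *Hmgb1* at 799. The 6 genes from *Hmgn1* to *Hmgb3* lay above the median background gene, which was at 35.2 per kilobase, and the other 3 lay below it. Among these 3, *Hmgn3* and *Hmga1* had several counted transcripts. The median member was at 206 per kilobase.

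**Figure D1:**
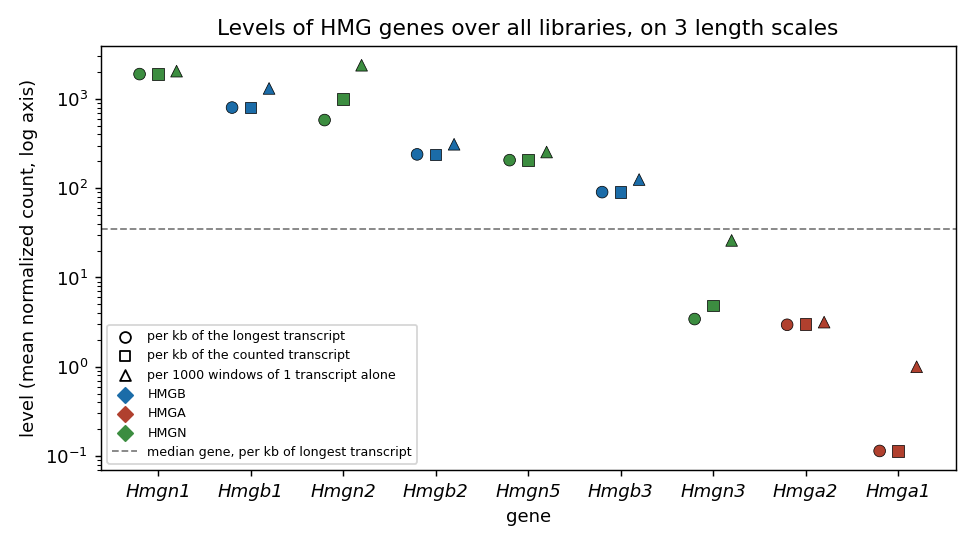
Level of each HMG gene over all libraries on a log axis, as mean normalized count per kilobase of the longest transcript (circles), per kilobase of the counted transcript (squares) and per 1000 windows found in 1 transcript alone (triangles), with colors for the families and a dashed line at the median background gene, 35.2 per kilobase. *Hmgn1*, *Hmgb1* and *Hmgn2* lead on all scales, and *Hmgn3*, *Hmga2* and *Hmga1* stay below the line.

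The level of a member also depends on how many of its reads could be assigned to it. Each counted transcript was cut into all its windows of 75 bases, and each distinct window was searched for, on both strands, in the reference transcripts of all other genes. Windows shared with antisense genes are included, although the libraries of the study were stranded. Most HMG genes have left processed pseudogenes, copies of their mRNA inserted elsewhere in the genome. *Hmgb1* shared windows with 86 other genes, of which 85 are annotated as pseudogenes, and 37.3% of its 2764 windows occurred in at least 1 of them. For *Hmgn2* the share was 55.9% of 1191 windows, in 11 other genes. *Hmgn1* stood at the other end, with 4.05% of 2100 windows in 3 other genes. The shares for *Hmgb2*, *Hmgb3* and *Hmgn5* were 20.8%, 24.7% and 15.8%, and that for *Hmga2* was 2.20%.

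For *Hmgn2*, 1 copy annotated as protein-coding, Gm10282, held all 666 of the shared windows. For *Hmgb3*, the pseudogene Gm6104 held 311 of 412. The *Hmgb3* level of 157 rests on a transcript of which 1257 of 1669 windows, 75.3%, are not shared. How the authors treated reads that map to more than 1 place is not stated beyond a row for non-unique alignments in the count tables, and the reference here is newer than the one they mapped to. The part of shared windows in the levels was not tested. Per 1000 windows found in 1 transcript alone, *Hmgn2* was at 2382, *Hmgn1* at 2045 and *Hmgb1* at 1310. *Hmgn2* thus led the members on this scale, while *Hmgb3* was at 125. The scale divides the whole mean normalized count by the number of such windows. If reads from shared windows were counted, it overstates members with many shared windows, such as *Hmgn2*.

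**Figure D2:**
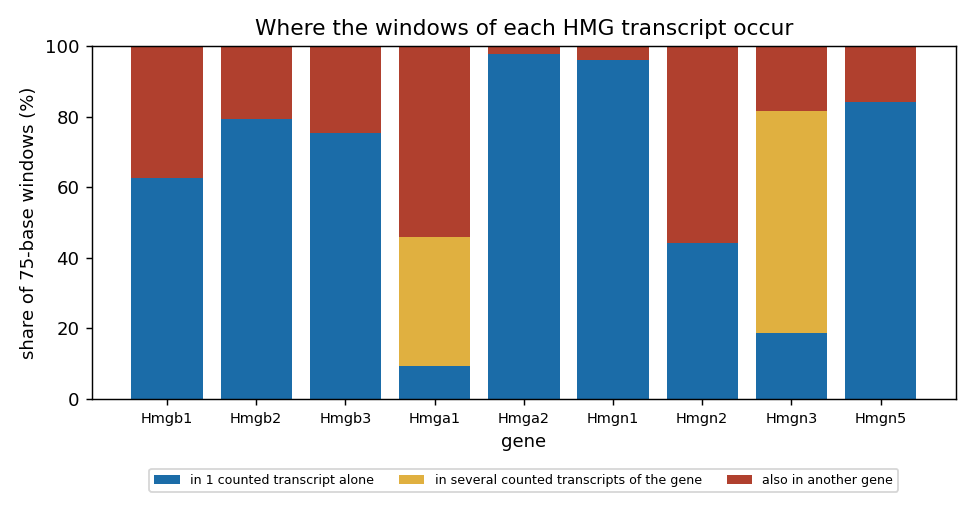
Share of the distinct 75-base windows of each HMG gene's counted transcripts, in percent, that occur in 1 counted transcript alone (blue), in several counted transcripts of the same gene (yellow) or also in another gene (red). *Hmgn1* and *Hmga2* are over 95% blue, 55.9% of *Hmgn2* is red, and *Hmga1* and *Hmgn3* have the smallest blue shares, 9.46% and 18.7%.

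*Hmga1* and *Hmgn3* are the members for which the authors' table counted more than 1 transcript. Reads were counted per RefSeq transcript, with 14 transcripts for *Hmga1*, 2 for *Hmgn3* and 1 for each of the other 7 members. Of the windows of *Hmga1*, 54.1% also lay in another gene. A further 36.5% lay in several of its own transcripts, and 9.46% in 1 alone. For *Hmgn3*, 62.9% of 980 windows lay in both of its transcripts, 18.5% in an antisense gene, Gm29054, and 18.7% in 1 transcript alone.

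The isoforms of *Hmgn3* are shown where their coding sequences part, since upstream of this point a read cannot tell them apart. They share the first 221 coding bases, of 297 in the longer and 231 in the shorter one. The capitals mark the last 30 shared bases and the lower case the coding bases that follow. On GRCm38 the longer stretch lies on the minus strand within exon 5, at chr9:83111003-83111062, and the shorter runs from exon 5 into exon 6, within chr9:83110419-83111062.
Longer coding sequence: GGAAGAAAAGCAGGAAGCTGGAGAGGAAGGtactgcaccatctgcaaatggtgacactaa
Shorter coding sequence: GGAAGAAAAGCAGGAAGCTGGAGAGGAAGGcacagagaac

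Genes with several counted transcripts had a lower median level than genes with 1, though not each of them was low. Among the 22086 genes with 1 counted transcript the median level was 12.9, and 51.7% had a mean of at least 10. Among the 3794 genes with 2 or more, the median was 0.806, 24.6% had a mean of at least 10, and 322 genes had one of at least 100. Of the 14 genes of all lists of related genes and cell markers with 2 or more counted transcripts, 4 had a mean of at least 10, and of the 72 with 1, 57 did. *Trpm1*, a channel of bipolar cells, was at 2866 with 2 counted transcripts. *Nrl*, the transcription factor that sets rod fate, was at 88.9 with 2 counted transcripts, *Rlbp1* of Müller glia at 1.39 with 2 and *Rbpms* of ganglion cells at 5.53 with 3. Other markers of these cells with 1 counted transcript were far higher, such as *Glul* at 17455 and *Nefl* at 2999. The part of the counting in the low levels of *Hmga1* and *Hmgn3* was not tested. *Hmga2* had 1 counted transcript, and 97.8% of its windows were found there alone.

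**Figure D3:**
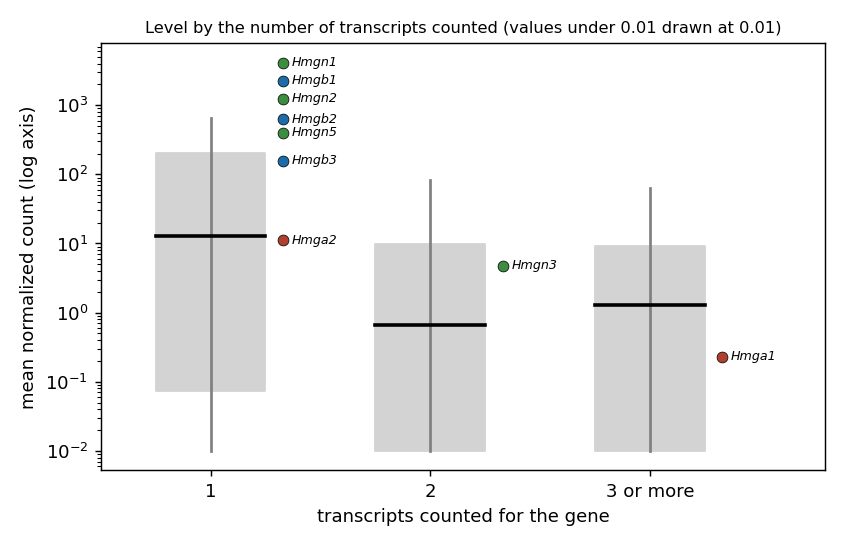
Mean normalized count (log axis) of all genes by the number of transcripts counted for them, as the 10th to 90th percentile (grey line), quartiles (box) and median (black bar), with the HMG members as points colored by family. The medians are 12.9, 0.652 and 1.27 from left to right, and *Hmgn3* and *Hmga1*, at 4.76 and 0.228, are the only members outside the first class.

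Other genes of the HMG-box superfamily were set beside the members. Of a list of 28 such genes, 20 had a mean of at least 10, and their median level per kilobase was 53.5, against 206 for the 9 members. Among the highest per kilobase were *Pbrm1* (238) and *Smarce1* (227), subunits of SWI/SNF chromatin remodelers. The 7 genes at or under a mean of 1 were the testis gene *Hmgb4* and the sex-determining *Sry*, both listed at 0 with 1 counted transcript, and *Hmg20b*, *Hmgxb3*, *Cic*, *Tcf7l1* and *Tcf7l2*, all with 2 or more. In this list 18 of 20 genes with 1 counted transcript had a mean of at least 10, and 2 of 8 with more. *Hmgn1*, *Hmgb1* and *Hmgn2* were each at a higher level per kilobase than any gene of the list as measured, with the 8 genes of several counted transcripts included, and *Hmgb2* at 239 was level with *Pbrm1* at 238.

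Linker histones, which bind nucleosomes beside the HMG proteins, had 6 of 8 genes with a mean of at least 10 and a median level per kilobase of 66.9. The highest were *Hist1h1e* at 575, *H1f0*, the linker histone of resting cells, at 342, and *Hist1h1c* at 288. *Hmgn2* was at 579 per kilobase of longest transcript, close to *Hist1h1e*, and *Hmgn1* at 1895 was above every linker histone of the list on this scale. Levels per kilobase of counted transcript were not computed for the linker histones, so the order on that scale is not known. The testis gene *Hist1h1t* was at a mean of 0.831.

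Most genes of cycling cells were low. The median of 12 such genes was 0.691 per kilobase, with *Mki67* at a mean of 3.36, *Top2a* at 1.56 and *Aurkb* at 0.170. The highest were *Pcna* (441 per kilobase), *Mcm2* (32.3) and *Mcm5* (8.82), which take part in DNA replication and, for *Pcna*, in repair. *Hmgb2*, at 239 per kilobase, lay below *Pcna* and above *Mcm2*, the next highest of the list. The part of cycling cells in its level was not tested.

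**Figure D4:**
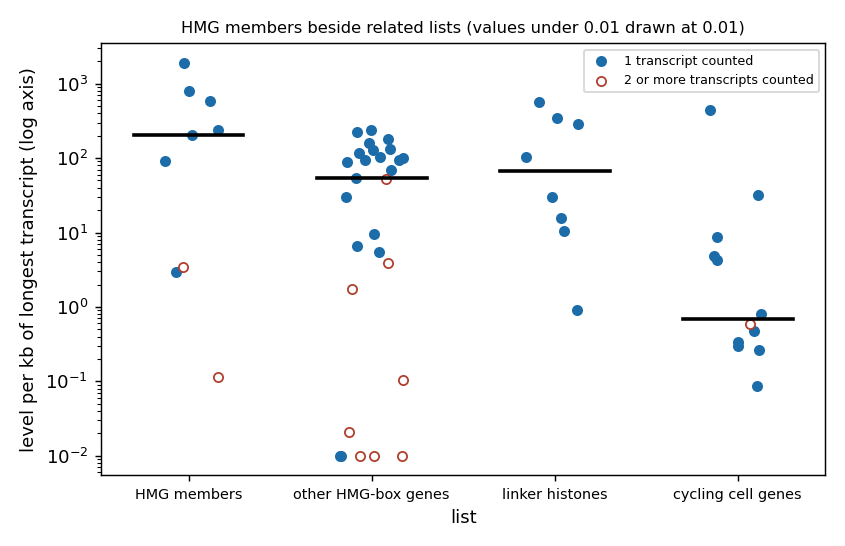
Level per kilobase of the longest transcript (log axis) of the HMG members, the other HMG-box genes, the linker histones and the genes of cycling cells, with 1 point a gene, filled where 1 transcript was counted and open where 2 or more were, and a bar at each median. The medians are 206, 53.5, 66.9 and 0.691, and the lowest points of the second list are mostly open.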

How the data were processed

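By the authors, single-end reads of 75 bases were trimmed (Trimmomatic), aligned by TopHat2 against a mouse build older than GRCm38, and assigned to RefSeq transcripts by HTSeq, giving 31616 rows and 5 that name no gene, whose share was not analysed here. The signal value used here is the authors' deposited mean per gene over all libraries of counts divided by DESeq2 size factors. How transcripts were joined into 1 value per gene is not given in the sources used here. Of the deposited tables, 2 also hold fold-changes, standard errors, a statistic and p-values of the authors' comparison, which were not used. The 32 columns of counts in the count tables (16 in each) match no label and were left out, so the planned quasi-likelihood test between the groups was not run. Depth and precision per library were not analysed here.

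Lengths, sequences and windows came from GENCODE M21 (GRCm38), joined by symbol or older symbol for 89.1% of genes. Levels per kilobase were ranked among the 14816 background genes with a length. Counted transcripts were matched by accession without its version, so their sequence may differ from the one the authors used. The coding sequences were aligned globally (match 2, mismatch -1, gap opening -5, extension -1, gaps at the ends -0.5) in place of reference proteins, which were not used here. Windows were compared for exact identity with annotated transcripts only, not with the genome. The window count was tested on simulated sequences. All 9 members are named with values, and of the lists of other genes the 3 highest per kilobase and those at or under a mean of 1, except for an item that is not reported here; copies of the members and tissue markers were named after their values were seen. The members and lists were chosen with earlier results of these data known. Software versions were Biopython 1.88, matplotlib 3.10.9, pandas 2.3.3, numpy 2.4.6 and scipy 1.17.1, run in Python 3.11.15.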

Additional observations from a re-analysis of the deposited data

How the results depend on the processing

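With a minimum mean of 10 in place of 1 for the background, 5 members in place of 6 lay above the median gene, as *Hmgb3* moved from above 59.6% of genes to above 47.5%, and with all genes above 0 the number was 6. The rank by level per kilobase differed from the reported order for 2 members with the length of the counted transcript (*Hmgb1* and *Hmgn2*), for 4 with the coding length (these and *Hmgn3* and *Hmga2*) and for 3 with windows found in 1 transcript alone, a scale chosen after seeing the data, which put *Hmgn2* first. *Hmgn1* was first on the other scales. Per kilobase of coding sequence the ratio of *Hmgn1* to *Hmgn5* was 43.8 in place of 9.21. Identity of coding sequences over the shorter sequence was the same or lower for each of the 10 pairs. It fell most for *Hmga1* and *Hmga2*, to 62.9% in place of 70.1%. No paired analysis was possible because the columns of counts match no mouse, so neither the test nor fits that leave out a mouse could be run. With a pooled mean alone, neither depth nor spread bounds any value given.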
